A study of Mus musculus with 8 samples.

Results

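The 10 genes described here set, copy, protect or remove DNA methylation, and were followed in 8 RNA sequencing libraries of early mouse embryos. They were the methyltransferase genes Dnmt1, Dnmt3a and Dnmt3b, the cofactor genes Dnmt3l and Uhrf1, the oxidase genes Tet1, Tet2 and Tet3, and the protection genes Dppa3 and Zfp57. Members were taken by symbol, and all 10 were found among the 21553 genes with a value. As 1-cell embryos, B6CBA F1 crosses received an injection of mRNA encoding mCherry (a fluorescent protein, the control), Snrpb, Snrpd2, or Snrpb and Snrpd2 together. Snrpb and Snrpd2 encode Sm proteins, core parts of the spliceosome, and the series asks what their supply does to splicing and to the response to DNA damage around the start of embryonic transcription. RNA was taken from whole embryos as zygotes (1-cell stage, 5 h later) or as 2-cell embryos (24 h later). Each of the 8 conditions had 1 library, a pool of 40 embryos from 3 independent experiments, so no condition had a replicate and the spread between embryos is hidden in the pool.

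Methyl groups on the cytosines of CG pairs are copied to new DNA strands by DNMT1, which UHRF1 guides to half-methylated sites. New marks are laid down by DNMT3A and DNMT3B, and DNMT3L, which has no activity of its own, stimulates them, above all in the growing oocyte. After fertilisation most of the inherited methylation is lost, in part through oxidation of the paternal genome by TET3, while ZFP57 keeps the marks of imprinted regions and DPPA3 (also called Stella or PGC7) shields the maternal genome and acts on UHRF1. The mRNA of many of these genes is stored in the egg.

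The libraries held between 39492734 and 59979046 reads, with 13631 to 13860 genes at 10 reads or more at the 1-cell stage and 15541 to 15810 at the 2-cell stage. No libraries were identical, and the log-scale correlation of each with the others of its stage averaged 0.989 to 0.9906 at the 1-cell and 0.9836 to 0.9849 at the 2-cell stage. The injected genes matched the labels in all 8 libraries: Snrpb stood at 6.09 to 26.18 cRPKM where it was not injected and at 876.26 to 43849.91 where it was, and Snrpd2 at 0.85 to 10.56 against 4726.3 to 17926.25. cRPKM is the deposited value, reads scaled to gene length and library total. The 9 measured oocyte and zygote markers summed to 3880 to 4560 cRPKM at the 1-cell and 2940 to 3400 at the 2-cell stage, and the 7 measured 2-cell markers to 11.5 to 17.4 and 252 to 275. The 21 cumulus and granulosa cell markers summed to 24.4 to 53.8 and 23.9 to 28.7 cRPKM. Cyp19a1 was the largest part at the 1-cell stage (15.52 to 19.65 cRPKM, then 3.46 to 4.60), and Tnfaip6 stood at 1.17 to 9.11 and 3.71 to 4.39. At the 2-cell stage Gja1 (3.57 to 5.59) and Foxl2 (3.34 to 5.40) had the highest means. Ereg was at 0 in all libraries and Pgr at 0 at the 1-cell stage. Of 18 tested members 5 were called higher and 5 lower at the 2-cell stage, against 38.1% and 32.0% of all 16264 tested genes. The 8 sperm markers summed to 3.42 to 4.6 and 3.19 to 5.38, with Prm2 the largest part (2.96 to 3.93 and 2.05 to 3.54) and Smcp at 0 throughout. The 9 blood, fibroblast and oviduct markers summed to 4.87 to 17.0 and 30.1 to 39.1 cRPKM, with 3 of 4 tested members called higher at the 2-cell stage, carried by the epithelial genes Krt8 (mean 8.31 to 21.3) and Epcam (0.247 to 11.5), while the blood gene Hbb-bt was at 0. The part of any of these lists in the results below was not tested.

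Dppa3 had the highest level of the 10 genes and Tet1 the lowest at the 1-cell stage, across a range from 2480 to 0.302 cRPKM in the mean of 4 libraries. Zfp57 (1420), Uhrf1 (230), Dnmt1 (122), Dnmt3l (81.3), Dnmt3a (36.1), Tet3 (28.3), Dnmt3b (6.95) and Tet2 (0.512) lay between them, in that order of mean cRPKM. Of the neighbours in this order, only Dnmt3a and Tet3 overlapped in their single libraries. At the 2-cell stage the order of mean cRPKM became Dppa3 (2840), Zfp57 (141), Dnmt3l (112), Uhrf1 (59.2), Tet3 (19.9), Dnmt3a (13.1), Dnmt1 (9.36), Dnmt3b (7.63), Tet1 (0.95) and Tet2 (0.92). There Dnmt1 and Dnmt3b overlapped, and so did Tet1 and Tet2. Dppa3 ranked 9 of 21553 genes by mean cRPKM at the 1-cell stage and 10 at the 2-cell stage, while Zfp57 went from rank 24 to 481 and Dnmt1 from 648 to 5345.

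**Figure D1:**
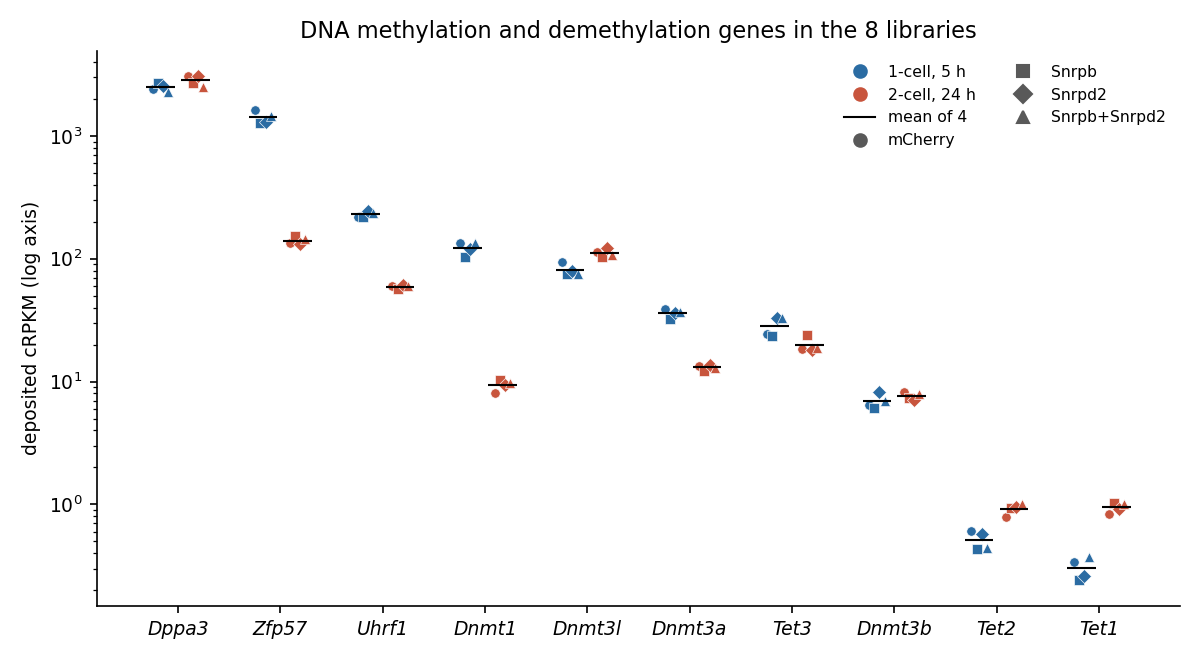
Deposited cRPKM (log axis) of the 10 genes in each library, by stage (blue, 1-cell at 5 h; red, 2-cell at 24 h) and injection (symbols), with the mean of the 4 libraries of a stage as a line. Dnmt1, Uhrf1, Dnmt3a and Zfp57 were lower in each 2-cell library than in any 1-cell library, and Dppa3 lay between 2289.38 and 3078.66 cRPKM in all 8.

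Dnmt1, Uhrf1, Dnmt3a and Zfp57 fell together between the stages, and the sequence before their annotated starts is shown here because these starts differ widely in CG content. RefSeq promoter windows (GRCm38.p6, 250 bases before to 50 after each annotated start) matched 9 of the 10 genes with 18 windows, and Dppa3 had no entry. Only bases before the start and outside annotated exons are printed, 5′ to 3′ on the gene's strand, with each CG pair in capitals.
Dnmt1, start 1, chr9:20959889-20960138, minus strand: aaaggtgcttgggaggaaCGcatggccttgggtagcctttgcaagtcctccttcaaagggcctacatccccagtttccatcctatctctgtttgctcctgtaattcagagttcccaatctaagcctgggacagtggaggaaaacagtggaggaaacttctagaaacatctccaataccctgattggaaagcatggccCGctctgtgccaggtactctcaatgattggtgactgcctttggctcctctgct
Dnmt1, start 3, chr9:20952624-20952707, minus strand: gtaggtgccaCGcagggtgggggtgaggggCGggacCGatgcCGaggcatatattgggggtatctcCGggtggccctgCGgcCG
Uhrf1, start 1, chr17:56303087-56303320, plus strand: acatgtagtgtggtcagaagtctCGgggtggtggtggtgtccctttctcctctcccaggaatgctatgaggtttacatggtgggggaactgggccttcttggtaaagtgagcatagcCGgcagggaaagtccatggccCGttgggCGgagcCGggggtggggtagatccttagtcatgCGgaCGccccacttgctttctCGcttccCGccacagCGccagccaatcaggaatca
Dnmt3a, start 1, chr12:3806730-3806979, plus strand: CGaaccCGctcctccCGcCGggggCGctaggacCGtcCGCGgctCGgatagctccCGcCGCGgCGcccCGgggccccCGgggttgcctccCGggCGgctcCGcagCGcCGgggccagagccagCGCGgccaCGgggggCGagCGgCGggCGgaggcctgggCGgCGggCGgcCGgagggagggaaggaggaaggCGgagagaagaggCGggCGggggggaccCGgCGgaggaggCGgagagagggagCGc
Zfp57, start 1, chr17:37000913-37001162, plus strand: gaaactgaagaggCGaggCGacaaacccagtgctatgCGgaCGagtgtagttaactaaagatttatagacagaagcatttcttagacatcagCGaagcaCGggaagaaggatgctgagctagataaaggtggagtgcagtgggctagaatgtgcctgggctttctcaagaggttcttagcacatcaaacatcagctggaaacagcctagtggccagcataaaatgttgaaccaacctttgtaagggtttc
The stretch before the first Dnmt1 start held 2 CG pairs in 250 bases, and the one before the third start 7 in 84 bases. Over the whole 300-base windows the 3 Dnmt1 starts held 2, 12 and 33 CG pairs, against a median of 7 in all 32851 windows of 27025 genes. The stretch of Uhrf1, which ends 16 bases before the start, held 10, that of Dnmt3a 38 and that of Zfp57 6. Windows of Zfp57 (6, 9 and 4 CG pairs) and Dnmt3l (6, 4 and 3) lay near or under that median with Dnmt1's first start, while those of Dnmt3a (46, 47 and 18), Tet2 (57), Dnmt3b (30), Tet3 (22), Tet1 (17) and Uhrf1 (12 and 33) lay above it. The windows of Dnmt1, Uhrf1, Dnmt3a and Zfp57 thus ranged from 2 to 47 CG pairs. As the start in use is not known, no class of CG content is given to these genes. On either strand, the CCAAT box (CCAAT) was in 6 of the 18 windows, against 37.4% of all windows, and the GC box (GGGCGG) in 12, against 35.7%. The 18 windows belong to 9 genes, and those of Dnmt3a starts 1 and 2 share bases, so the windows are not independent. The E2F-type word TTTCCCGC was in 0 windows (1.07% of all) and TTTGGCGC in 1, that of the third Dnmt1 start (0.514% of all); none of these 4 words contains another. A match is a run of letters only. Gene totals do not tell which start was used, so the oocyte and somatic forms of Dnmt1 could not be separated.

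Dnmt1 and Uhrf1, the pair that copies methylation at replication, both fell from the 1-cell to the 2-cell stage. Dnmt1 stood at 133.64 (mCherry), 103.19 (Snrpb), 119.00 (Snrpd2) and 133.78 cRPKM (both) in 1-cell libraries. At the 2-cell stage it stood at 8.06, 10.29, 9.39 and 9.68 cRPKM in the same order. Every 2-cell library was thus below every 1-cell library by about an order of magnitude, on 1787 to 2187 reads against 32278 to 38871. In the edgeR quasi-likelihood fit with injection as a term, Dnmt1 fell by 3.97 ± 0.14 (SE) on the log2 scale, 15.6-fold, with a Benjamini-Hochberg adjusted p of 1.67e-08 over 16264 genes. It ranked 48 from the lowest change of all tested genes, and the drop within a single injection ranged from 12.4-fold (Snrpb) to 19.1-fold (mCherry). With injection as a term, these p-values measure the spread of the stage change from injection to injection, not between replicate pools. Poly(A) RNA of whole embryos was counted against the library, so a fall or rise between the stages, here and below, is a change in share. The amount of a transcript per embryo and the length of its poly(A) tail were not measured. Fewer cells with a transcript and less transcript per cell cannot be told apart either.

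Uhrf1 started higher, at 217.83 (mCherry), 218.56 (Snrpb), 245.78 (Snrpd2) and 237.04 cRPKM (both), and ended at 59.51, 56.21, 60.77 and 60.43 cRPKM. The 4 libraries of a stage lay close together (230 ± 13.9 and 59.2 ± 2.08, SD, n = 4 libraries of different injections) and the stages did not overlap. It fell by 2.21 ± 0.11 on the log2 scale (4.64-fold, edgeR adjusted p = 7.69e-08), less steeply than Dnmt1 in each injection (4.21- to 5.04-fold). Within single libraries the ratio of Uhrf1 to Dnmt1 in cRPKM therefore went from 1.63 to 2.12 at the 1-cell stage to between 5.46 and 7.38 at the 2-cell stage.

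The de novo genes split: Dnmt3a fell, while no change was called for Dnmt3b and Dnmt3l. Dnmt3a, the main methyltransferase of the growing oocyte, stood at 39.30 (mCherry), 32.12 (Snrpb), 36.25 (Snrpd2) and 36.58 cRPKM (both) and then at 13.44, 12.27, 13.66 and 12.97 cRPKM. The stages did not overlap, and the 4 injections gave nearly one value, with drops of 3.24- to 3.36-fold. The fit gave a fall of 1.72 ± 0.10 on the log2 scale (3.29-fold, edgeR adjusted p = 2.75e-07).

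Dnmt3b, the methyltransferase that takes over later in the embryo, lay between 6.07 and 8.29 cRPKM in all libraries. Its 1-cell values were 6.50 (mCherry), 6.07 (Snrpb), 8.29 (Snrpd2) and 6.93 cRPKM (both), and its 2-cell values 8.23, 7.39, 7.06 and 7.85 cRPKM. The 1-cell Snrpd2 library held the highest value, and the stages overlapped. The log2 difference was -0.12 ± 0.14 (95% interval -0.43 to 0.20, edgeR adjusted p = 0.483), and it was 0.14 when scaled by library totals, so no direction is given.

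Dnmt3l, the catalytically inactive partner, was the most abundant of the 4 DNMT-family transcripts at the 2-cell stage. It stood at 94.61 (mCherry), 75.30 (Snrpb), 79.95 (Snrpd2) and 75.40 cRPKM (both) at the 1-cell stage and at 114.15, 103.46, 121.39 and 107.37 cRPKM at the 2-cell stage. All 2-cell values lay above all 1-cell values, as they did for 42.8% of the 16264 tested genes. The edgeR fit gave 0.20 ± 0.11 on the log2 scale (interval -0.04 to 0.44, adjusted p = 0.116), which was not called. With library totals in place of TMM (a scaling that assumes most genes keep their share) it was called at 0.46 (adjusted p = 0.00301), but that scaling also moved the median of all tested genes, from 0.15 to 0.41. Relative to that median the Dnmt3l difference was 0.05 under both scalings.

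The make-up of the DNMT transcripts changed with these differences. The 4 genes summed to 247 ± 23.7 cRPKM at the 1-cell and 142 ± 8.18 at the 2-cell stage (SD, n = 4). Dnmt1 made up 49.6% ± 2.31 of that sum and then 6.63% ± 0.925, and Dnmt3l 33.0% ± 2.29 and then 78.7% ± 1.18. The share of Dnmt3a was 14.6% ± 0.275 and 9.24% ± 0.172, and that of Dnmt3b 2.83% ± 0.426 and 5.40% ± 0.501. Dnmt3l stood at 2.06 to 2.41 times Dnmt3a in each 1-cell library and at 8.28 to 8.89 times in each 2-cell library. Dnmt3a over Dnmt3b went from 4.37 to 6.05 down to between 1.63 and 1.93. Dnmt1 was 3.21 to 3.66 times Dnmt3a at the 1-cell stage and 0.60 to 0.839 times at the 2-cell stage, so their order switched in all 4 injections. Such ratios within 1 library do not depend on scaling; they describe the members and carry no test.

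**Figure D2:**
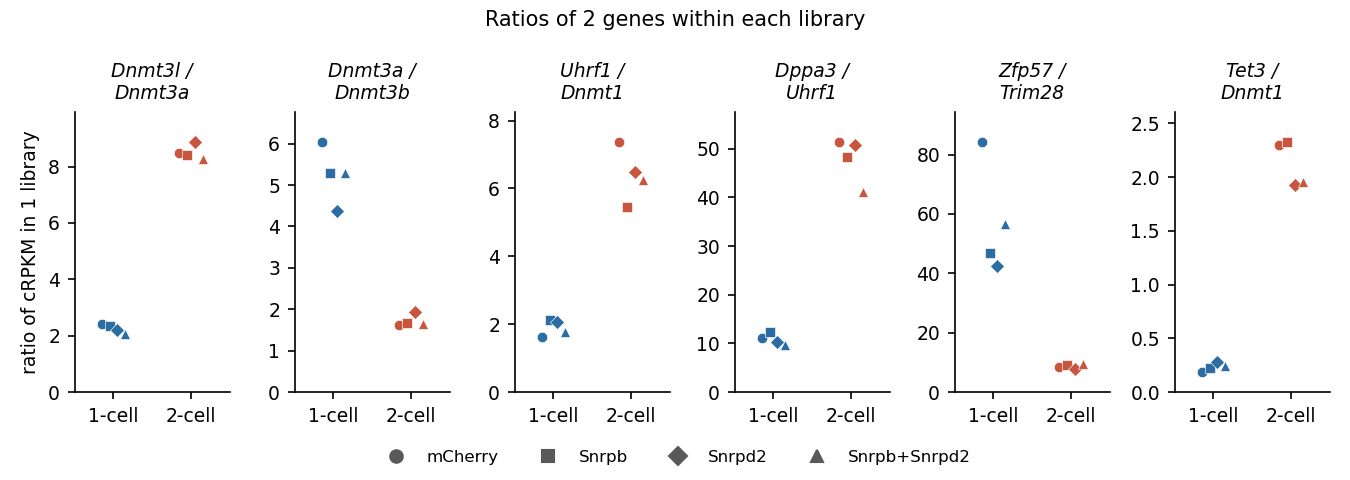
Ratio of the cRPKM of 2 genes within each library (linear axes from 0) at the 1-cell and 2-cell stage, with 1 symbol per injection. The stages did not overlap in any of the 6 ratios, and the 1-cell mCherry library had the highest Zfp57 over Trim28 ratio, at 84.4.

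The 2 protection genes differed from each other: Zfp57 fell 12.0-fold and no change was called for Dppa3. Zfp57, a zinc finger protein that binds methylated imprinting control regions, stood at 1634.65 (mCherry), 1282.78 (Snrpb), 1294.23 (Snrpd2) and 1459.23 cRPKM (both). At the 2-cell stage it stood at 133.27, 152.84, 131.37 and 144.83 cRPKM. No 2-cell library came near a 1-cell one, and the mCherry pair showed the steepest drop (14.1-fold) and the Snrpb pair the shallowest (10.4-fold). The fall was 3.59 ± 0.13 on the log2 scale (edgeR adjusted p = 1.67e-08, rank 94 from the lowest change). Trim28, the corepressor that ZFP57 recruits, fell by a smaller factor in the same fit (1.88-fold, adjusted p = 0.000141), and Zfp57 over Trim28 in cRPKM went from 57.6 ± 18.8 to 8.69 ± 0.797.

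Dppa3 stood at 2408.22 (mCherry), 2691.26 (Snrpb), 2534.83 (Snrpd2) and 2289.38 cRPKM (both), and at 3067.13, 2721.23, 3078.66 and 2487.82 cRPKM at the 2-cell stage. The stages overlapped, since the 2-cell value after both mRNAs lay inside the 1-cell range. In cRPKM each 2-cell library was above the 1-cell library of its own injection, by 1.01-fold (Snrpb) to 1.27-fold (mCherry). With TMM 1 injection was higher and 3 were lower. The log2 difference was -0.07 ± 0.11 with TMM (interval -0.32 to 0.18, edgeR adjusted p = 0.606) and 0.19 with library totals (adjusted p = 0.118), so its direction depended on the scaling. Against its partner Uhrf1, Dppa3 went from 10.8 ± 1.14 times to 47.9 ± 4.71 times in cRPKM. Near-identical pseudogene copies of Dppa3 and Dnmt3l exist, and how reads that map to several places were counted is not given in the sources used here, so their levels are uncertain. The same holds for Dnmt3b (near-copy Dnmt3c), and, without a stated use of strand, for Dnmt3l where Aire overlaps it and for Dnmt3a, Dnmt3b, Tet2 and Tet3, which have antisense or overlapping neighbours.

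Among the TET oxidases, Tet3 was called lower at the 2-cell stage and the scarce Tet1 and Tet2 higher. Tet3, the form of the egg and zygote, stood at 24.32 (mCherry), 23.53 (Snrpb), 32.82 (Snrpd2) and 32.70 cRPKM (both), then at 18.51, 23.94, 18.16 and 18.85 cRPKM. The 2-cell Snrpb library lay at the level of the lower 1-cell libraries, so the stages overlapped, and it was higher than its own 1-cell partner in cRPKM. The TMM-scaled fit gave a fall of 0.76 ± 0.15 on the log2 scale (1.7-fold, edgeR adjusted p = 0.00119), with drops from 1.22-fold (Snrpb) to 2.25-fold (Snrpd2). In mean cRPKM, without TMM, the drop was 1.43-fold.

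Tet1, known from pluripotent cells, stood at 0.34 (mCherry), 0.24 (Snrpb), 0.26 (Snrpd2) and 0.37 cRPKM (both) and then at 0.84, 1.03, 0.92 and 1.01 cRPKM. These levels rest on 193 to 260 and 494 to 583 reads, and the stages did not overlap. Tet1 rose by 1.42 ± 0.18 on the log2 scale (2.67-fold, edgeR adjusted p = 4.65e-05). Tet2, whose product lacks a CXXC DNA-binding domain, stood at 0.61, 0.43, 0.57 and 0.44 cRPKM and then at 0.79, 0.94, 0.95 and 1.00 cRPKM, in the same order of injections. Its rise of 0.59 ± 0.19 (1.51-fold, edgeR adjusted p = 0.0189) was the least firm of the calls: it was lost without the 1-cell Snrpb (adjusted p = 0.0815), 1-cell both (0.146), 2-cell Snrpb (0.0823) or 2-cell both library (0.125). Tet3 still made up 97.1% ± 0.624 of the TET transcripts at the 1-cell and 91.3% ± 0.974 at the 2-cell stage. Per library, Tet3 stood at 0.182 to 0.276 times the level of Dnmt1 at first and at 1.93 to 2.33 times later.

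In all, 2 of the 10 genes were called higher at the 2-cell stage, 5 lower and 3 not called. Over all 16264 genes tested with edgeR, 38.1% were called higher and 32.0% lower, 70.1% in either direction. A call for a stage change is thus common in these data, and the 7 of 10 called genes lie at that share. The median log2 difference of the 10 genes was -0.44, against 0.15 over all genes tested. In cRPKM, 4 genes (Dnmt1, Dnmt3a, Uhrf1 and Zfp57) were lower without overlap, against 24.8% of all tested genes, and 3 (Dnmt3l, Tet1 and Tet2) higher, against 42.8%.

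**Figure D3:**
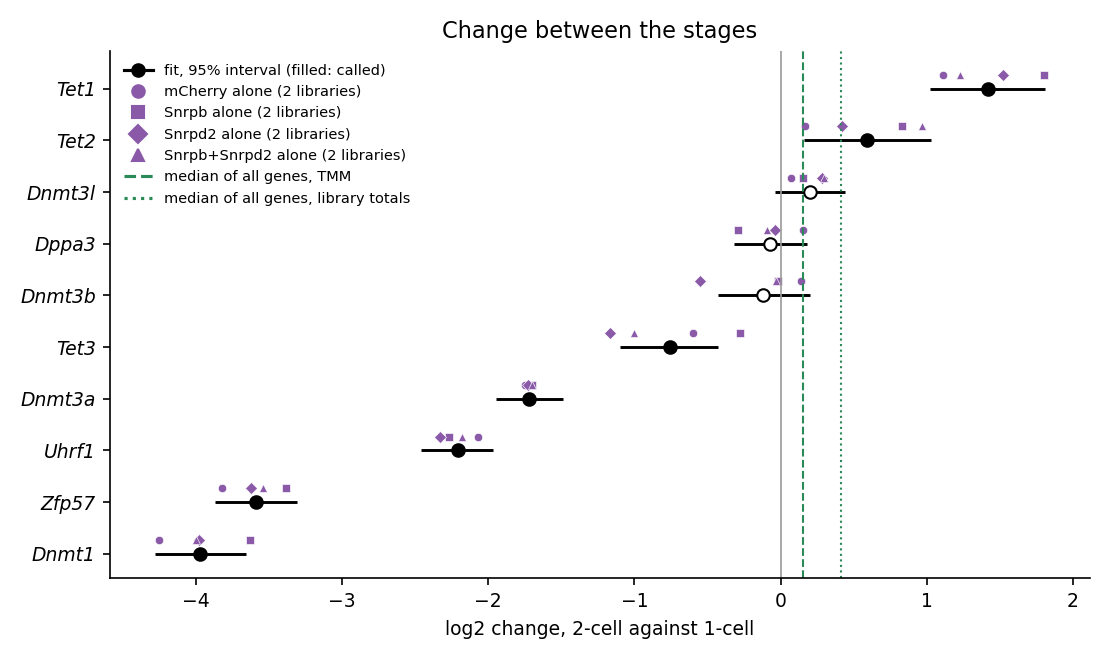
Log2 change at the 2-cell against the 1-cell stage for each gene: the edgeR estimate with its 95% interval (black; open circles were not called), the 4 injections taken singly (purple), and the median of all tested genes with TMM (dashed, 0.15) or library totals (dotted, 0.41). Dnmt1 and Zfp57 lie lowest at -3.97 and -3.59, and the intervals of Dnmt3l, Dppa3 and Dnmt3b include 0.

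Other genes of the pathway were read from 5 lists of 48 genes, of which 45 were tested. For the stage change, 11 were called higher, 25 lower and 9 not at all, with a median of -0.54 on the log2 scale. Over all 16264 tested genes, 38.1% were called higher and 32.0% lower, with a median of 0.15. The counts of each list below stand beside these shares, and no list was tested as a set. Folds of the list genes, here and below, come from the TMM-scaled edgeR fit. They therefore differ from the ratio of the mean cRPKM values printed beside them. Of the 11 partners of maintenance methylation, 3 were higher and 8 lower. Lig1, the ligase that joins lagging-strand fragments, fell 4.51-fold (8.92 ± 0.34 to 2.37 ± 0.192 cRPKM, edgeR adjusted p = 3.44e-07), and the chromatin remodeller Hells 4.24-fold (33.5 ± 3.16 to 9.50 ± 1.25, adjusted p = 1.55e-07). Uhrf2, the paralogue of Uhrf1, rose 7.51-fold (0.478 ± 0.132 to 4.24 ± 0.727 cRPKM, adjusted p = 1.12e-06) and Cdca7, which activates the remodeller HELLS, 2.62-fold (2.83 ± 0.702 to 8.71 ± 0.798, adjusted p = 2.39e-05). Uhrf2 thus moved opposite to Uhrf1, and stayed well below it in cRPKM.

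The methyl-CpG readers, proteins that bind methylated DNA, gave 1 higher and 4 lower call among 7 tested genes. Mbd2 rose 2.15-fold (9.53 ± 0.611 to 24.6 ± 2.71 cRPKM, edgeR adjusted p = 4.38e-05), while Mbd1 fell 4.48-fold (adjusted p = 4.81e-06) and Zbtb33 (Kaiso) 3.66-fold (adjusted p = 1.65e-06). Among the 8 partners of imprint protection, 1 was higher and 6 lower. The histone methyltransferase gene Setdb1 fell 5.87-fold (78.1 ± 11.3 to 15.9 ± 2.23 cRPKM, adjusted p = 1.91e-07) and the histone chaperone gene Daxx 2.16-fold (adjusted p = 1.05e-05). Arid4b was the higher one, by 1.31-fold (adjusted p = 0.0306).

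Demethylation partners had 4 higher and 2 lower calls among 10 tested genes, and theirs was the only list of the 5 with a median above that of all genes (0.49). Gadd45b, a stress-induced gene linked to active demethylation, rose 7.80-fold (2.58 ± 0.36 to 24.6 ± 6.56 cRPKM, edgeR adjusted p = 4.34e-07), and Apobec1, a cytidine deaminase gene, rose from 0.0375 ± 0.045 to 0.335 ± 0.188 cRPKM, near the limit of detection (adjusted p = 0.014). Ogt, whose product binds TET proteins, fell 4.19-fold (21.1 ± 1.80 to 6.02 ± 0.456, adjusted p = 2.8e-07), and Idh1, which makes the TET cosubstrate alpha-ketoglutarate, 3.03-fold (adjusted p = 1.69e-06). Of the 9 genes of methyl donor supply, 2 were higher and 5 lower. Shmt1 rose 6.44-fold (1.52 ± 0.35 to 11.6 ± 1.02 cRPKM, adjusted p = 7.47e-07). Mthfd1, a folate cycle enzyme, fell 5.43-fold (from 42.61 to 50.79 cRPKM down to 8.88 to 10.95, adjusted p = 8.75e-08), and Mtrr, which reactivates methionine synthase, 2.88-fold (adjusted p = 3.48e-05).

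**Figure D4:**
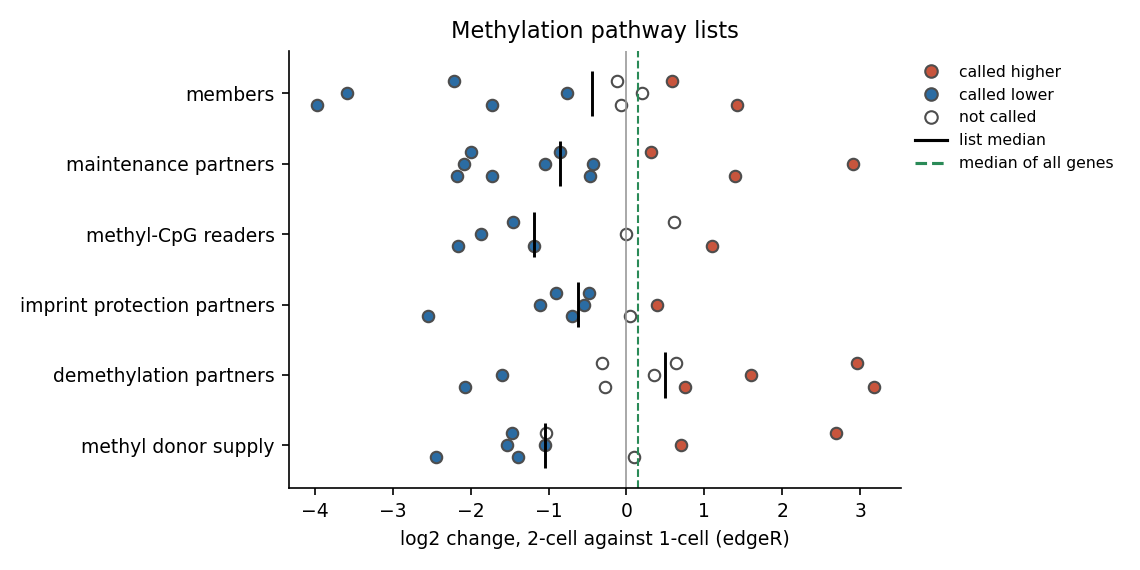
Log2 change at the 2-cell against the 1-cell stage (edgeR) of each tested gene of the 10 genes (labelled members) and of the 5 pathway lists, coloured by call, with the list median as a black line and the median of all genes dashed (0.15). The list medians lie at -0.85, -1.19, -0.62, 0.49 and -1.05 from the second row down.

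Whether added Sm protein mRNA alters the transcript totals of the 10 genes was asked in 4 contrasts, and none of the 10 was called in any of them. Gene totals do not measure splicing. At the 1-cell stage the 3 Sm-injected libraries differed from mCherry by log2 values from -0.31 (Tet2) to 0.32 (Tet3), and the smallest edgeR adjusted p was 0.373 (Dnmt3l). Of all 16867 genes 0.0% were called there by edgeR, 2618 had an unadjusted p under 0.05, and DESeq2 called 534 genes, no member among them. At the 2-cell stage the 10 differences ran from -0.20 (Dppa3) to 0.25 (Tet2), with adjusted p = 1.0 for each. There edgeR again called 0.0% of the genes (637 with an unadjusted p under 0.05), and DESeq2 called 0. No member had an unadjusted p under 0.05 at either stage. The 95% intervals reached from 0.548- to 1.71-fold at the 1-cell and from 0.656- to 1.76-fold at the 2-cell stage, taking the outermost ends over the 10 genes, and single genes had narrower ones (Dnmt3a 0.749 to 1.10 and Uhrf1 0.895 to 1.35 at the 1-cell stage). The contrasts with mCherry rest on 1 control library per stage, which was assumed to vary like the injected ones. Their fit took the 3 different Sm injections of a stage as 1 group, so effects of a single mRNA count as spread. Injected Snrpb itself was thus not called at the 1-cell stage. It stood there at 7.96 (mCherry), 43849.91 (Snrpb), 6.09 (Snrpd2) and 11913.49 cRPKM (both). The 1-cell mCherry library also had the lowest cumulus marker sum of its stage (24.4 cRPKM, against 34.4 to 53.8 in the Sm-injected libraries); its part in these differences was not tested.

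Single libraries can be set against mCherry only as a description, with TMM-scaled ratios and intervals that cover counting error alone. Of the 60 such ratios of the 10 genes, 0 reached 2-fold, which 4.66% (Snrpb), 5.16% (Snrpd2) and 4.16% (both) of all compared genes did at the 1-cell stage. At the 2-cell stage those shares were 4.37%, 4.31% and 3.51%. The members' ratios ran from 0.713 (Tet2, both, 1-cell) to 1.38 (Tet3, Snrpd2, 1-cell). At the 2-cell stage they ran from 0.793 (Dppa3, both) to 1.28 (Tet3, Snrpb). Dnmt3l was at 0.782 to 0.866 and Zfp57 at 0.811 to 0.876 in the 3 Sm-injected 1-cell libraries, that is below mCherry in each. So were Dnmt1 (0.824 to 0.982), Dnmt3a (0.872 to 0.945) and Tet2 (0.713 to 0.96), while Uhrf1 (1.07 to 1.16) and Tet3 (1.03 to 1.38) were above it in each. The share of all genes that lay on 1 side of mCherry was not counted, so this is not read as a trait of these genes.

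The injection effect was also compared between the stages. Tet2 was at 0.713 to 0.96 times the mCherry level in the Sm-injected 1-cell libraries and at 1.14 to 1.24 times at the 2-cell stage, and lay on the same sides of mCherry in cRPKM. Dnmt1 was at 0.824 to 0.982 and then 1.10 to 1.27 times with TMM, but in cRPKM the 1-cell library with both mRNAs equalled mCherry (133.78 and 133.64). Uhrf1 was at 1.07 to 1.16 and then 0.936 to 0.992 times with TMM, but with library totals 2 of its 3 ratios at the 2-cell stage were 1.02, so no side is given for it. The difference between the stages was tested as an interaction and was not called: 0.38 ± 0.21 on the log2 scale for Dnmt1 (edgeR adjusted p = 0.58), 0.56 ± 0.36 for Tet2 (0.644) and -0.19 ± 0.19 for Uhrf1 (0.773). Over all 10 genes these differences ran from -0.35 (Dnmt3b) to 0.56, and 0.0% of the 16867 genes were called by edgeR (1648 with an unadjusted p under 0.05; DESeq2 called 31 genes, no member among them). The 3 ratios of a gene at a stage share 1 mCherry library, so they are not independent of each other.

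**Figure D5:**
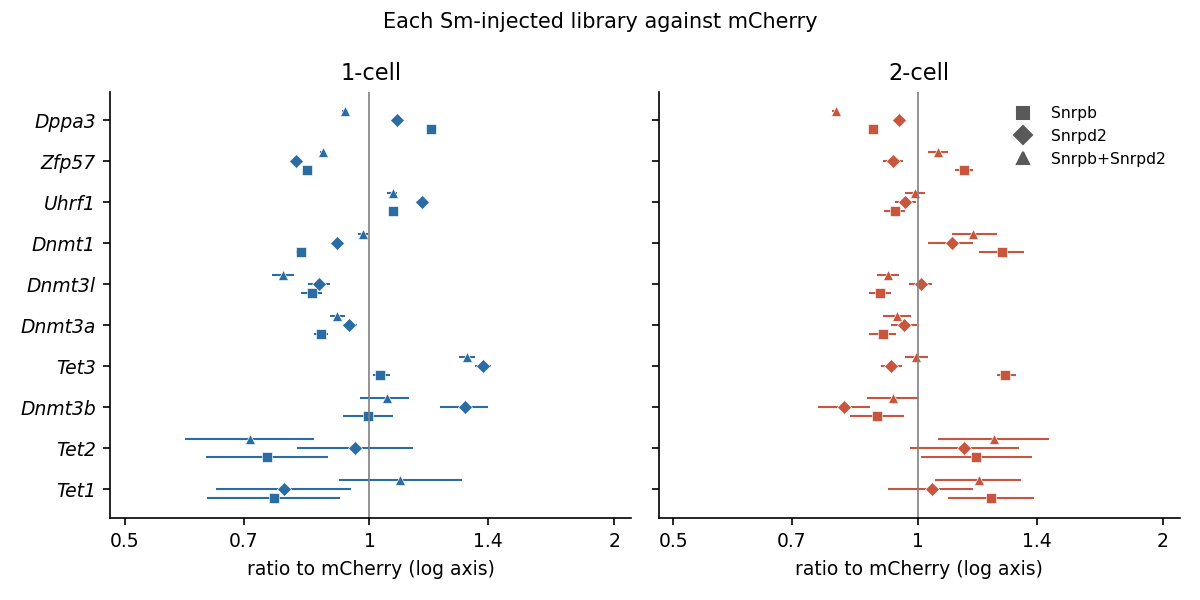
Ratio of each Sm-injected library to the mCherry library of its stage for the 10 genes (log axis, TMM-scaled; bars are exact 95% intervals for counting error only). All 60 ratios lie between 0.713 and 1.38.

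Snrpb and Snrpd2 injection were also compared with each other, the 2 stages standing in for replicates. The log2 differences of the 10 genes ran from -0.15 (Tet2) to 0.17 (Zfp57), with intervals from 0.593- to 1.58-fold and an edgeR adjusted p of 1.0 for each. In this contrast 0.00615% of the 16264 genes (1 gene) was called in either direction. None of the tested genes of the 5 pathway lists was called by edgeR in any of the 4 contrasts.

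Genes whose profile over the 8 libraries was most like that of each member were sought by Pearson's r of log2(cRPKM + 0.1) among 11053 genes with a mean of at least 1 cRPKM. The 8 libraries form 2 stages, so r mainly shows the stage step, and it is given as a description. For Dnmt1 the nearest were Prdm16 (r = 0.9996), Mcm4 (0.9994) and Gspt2 (0.9993), but 2143 genes had r over 0.95. For Zfp57 they were Brip1 (0.9995), Mcm4 (0.9993) and Cpeb1 (0.9993), for Uhrf1 Txnip (0.9994), Ets2 (0.9993) and Prpf6 (0.9991), and for Dnmt3a Sec23ip (0.9993), Taf1a (0.9992) and Pdpn (0.9988). Profiles without a large step had few neighbours. Dppa3 had 3 genes over 0.95, Rdh16 (0.9907), Ppp4c (0.9774) and Mettl17 (0.9597), and Tet3 had 27, led by Wnk2 (0.9863), Chd7 (0.9823) and Chsy1 (0.9792). Dnmt3b had 0, and its nearest were Rasa3 (0.9481), Rhoa (0.9299) and Slc25a15 (0.9287). Dnmt3l came with Polr1d (0.9894), Dppa5a (0.9885) and Tdp2 (0.9883), and 250 genes passed 0.95. Tet1 and Tet2 were below the mean level required. Among the 10 genes themselves, Dnmt1 and Zfp57 had r = 0.999 and Dnmt1 and Uhrf1 0.995, while Dnmt3b had r between -0.488 and 0.502 with all others.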

How the data were processed

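Poly(A) RNA of 8 pools of whole embryos was sequenced with the SMARTer Stranded kit on a HiSeq2500, per the labels' protocols. The authors deposited 1 table per library with 2 values for each of 22667 Ensembl genes: whole read counts, and cRPKM, an RPKM value. 1114 genes had no value and 21553 were used. For 2666 genes with at least 2000 reads, the deposited cRPKM was count over library total times a factor fixed for each gene, within 0.206%. Whether that factor is the gene length was not checked. The submitters' processing notes name mm9 as the build. Aligner, annotation, use of strand and handling of multiply mapping reads were not given in the sources used here. Transcripts with short poly(A) tails may be undercounted by any poly(A) method. Symbols came from GENCODE vM21 (20451 genes matched) and promoter windows from RefSeq on GRCm38.p6, so no coordinate of the windows was joined to the mm9 counts.

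Counts were tested with edgeR 4.0.16 in R 4.3.3 (quasi-likelihood, TMM, filterByExpr, Benjamini-Hochberg, calls at 0.05). The stage model had terms for injection and stage (3 residual degrees of freedom, 16264 genes, common dispersion 0.043). The injection model had 4 groups, stage by Sm-injected or mCherry (4 residual degrees of freedom, 16867 genes, common dispersion 0.0362). The script was tested on simulated data. Ratios of 2 libraries used TMM-scaled counts of genes with at least 50 reads in either, with exact conditional binomial intervals at 95%. A count of 0 allows 3 reads, 0.05 to 0.076 CPM here; intervals and floors cover counting error only, as reads carry no molecular identifiers.

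Alternatives were DESeq2 1.42.0 (its size factors and its Wald test), library totals, no low-count filter, limma 3.58.1 on log2(cRPKM + 0.1 or 1), no injection term, and each library left out. The 10 genes, the pathway and marker lists and the tests were chosen with earlier results of these data known. All 10 genes are named; of each pathway list the text names at most 2 genes per direction with the largest called change, and for each gene with a mean of at least 1 cRPKM the 3 with the most similar profile; Trim28 is named as a partner of Zfp57, and marker genes where they carry a sum or are at 0. 1 gene that this rule names is not reported here. Groups came from the sample labels.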

Additional observations from a re-analysis of the deposited data

Results flagged for a closer look

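Of 20 sets of 4 libraries looked at (10 genes at 2 stages), 1 held a library far from the other 3. Tet3 stood at 23.94 cRPKM in the 2-cell Snrpb library, against 18.16 to 18.85 in the other 2-cell libraries, and the gap to the nearest was 0.881 of the whole range, above Dixon's critical value for 4 samples. Chance flags about 1 in 20 such sets. The value rests on 10541 reads. The 4 libraries had different injections and none was repeated.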

How the results depend on the processing

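The stage change was recomputed under 16 alternatives. The 5 members called lower were called lower in each. The number called higher, 2, was 1 to 2 when single libraries were left out, through the loss of Tet2, and 3 in the 5 alternatives that also called Dnmt3l (library totals, DESeq2's Wald test and the 3 limma fits). Not called by any alternative, Dnmt3b changed sign with library totals (0.143) and with limma on log2(cRPKM + 0.1) (0.141), + 1 (0.125) or + 0.1 without filter (0.141), and Dppa3 with the same 4 (0.191 in each); library totals moved the median of all genes from 0.154 to 0.413, and the calls over all genes from 6198 higher and 5198 lower to 7273 and 4161. Against mCherry at the 2-cell stage, the log2 values of Tet3 ranged from -0.057 to 0.189 and of Zfp57 from -0.004 to 0.139 with single libraries left out, both turning without 2-cell Snrpb. Snrpb against Snrpd2, Tet2 ranged from -0.313 to 0.003 with single libraries left out. Over all 15 alternatives of this contrast the sign also turned for Tet3 (-0.31 to 0.34), Dnmt1 (-0.20 to 0.25), Tet1 (-0.16 to 0.35), Dnmt3b (-0.44 to 0.12) and Dppa3 (-0.13 to 0.16). The cause was not tested. No member was called in an injection contrast under any alternative. Over all genes, where edgeR called 0, DESeq2 called 534 (1-cell) and 31 (stage dependence), and limma without filter 4, 55 (2-cell) and 29; with the filter and a pseudocount of 0.1 it called 1, 4 and 1. Leaving out 1-cell Snrpd2 or 1-cell both gave 2 and 3 genes for the 1-cell contrast. Depth limited Tet1 and Tet2 most, with 193 to 583 reads a library. The stage fit paired the libraries by injection; without that term 2 members were again called higher and 5 lower. The labels carry no replicate numbers to pair by.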
